A study of Rattus norvegicus with 9 samples.

Results

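The unannotated small RNAs of 25 to 34 nts are the reads of rat left ventricle in this size range that the miRNA annotation left without a name. They were chosen by length alone from the deposited counts of unannotated sequences, and numbered 4862 of 13317 sequences (36.5%) and 1828228 of 5794217 reads (31.6%). The tissue came from the left ventricular free wall of 3 male Sprague-Dawley rats aged 8 months, all untreated as far as the labels say. Each heart (6, 7 and 8) was cut into epicardium, mid-myocardium and endocardium, with 1 TruSeq small RNA library per layer and heart, so that each layer had 3 libraries and each heart gave all 3 layers. The layers are whole tissue slices that hold myocytes, vessels and blood. Fewer cells of a type and less RNA per cell cannot be told apart in such samples.

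Small RNAs of this size are longer than miRNAs. The size range holds pieces of tRNA, in particular 5′ parts made by a cut in or near the anticodon loop, as well as pieces of rRNA, Y RNA and mRNA. It also holds the piRNAs of the germ line, which commonly begin with uridine or carry adenosine at position 10. tRNA genes carry an internal promoter element, the A box, whose letters are kept in the D arm of the RNA and so in its 5′ part.

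Sequences are named here by their rank in summed reads over the 9 libraries, so that sequence 1 is the most abundant. Sequences that shared an exact run of at least 18 nts were put in a family, which is named by its most abundant member. The leading members of 5 abundant families are shown first because these families held much of the reads described below. Letters that match the A box are in capitals.
Sequence 1: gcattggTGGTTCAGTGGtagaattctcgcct
Sequence 6: cggggttcggggttctcctccgcgtcggc
Sequence 8: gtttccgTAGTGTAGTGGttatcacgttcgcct
Sequence 3: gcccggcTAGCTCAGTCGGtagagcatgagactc
Sequence 12: actaaccctagccctacaaccaaca

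Sequence 1 matched the first 32 nts of the glycine tRNA gene Trnag-gcc2 exactly, at chr10:54322841-54322872 on the minus strand of GRCr8. The gene is 71 nts long (chr10:54322802-54322872), and the stretch that matched lies within the window that RefSeq gives for the start of Hes7. No genome was used, and the RefSeq tables used for matching hold miRNA hairpins and short windows around gene starts, which cover few tRNA and rRNA genes. Names of other families are therefore given from textbook knowledge of the RNAs: sequence 8 is the 5′ part of a valine tRNA and sequence 3 of a lysine tRNA. Sequences 6 and 12 were left without a name.

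The reads were unevenly spread over the members. The 10 most abundant members held 29.3% of the member reads and the 100 most abundant 59.9%, while 3228 members had fewer than 100 reads over the 9 libraries. The members fell into 633 families, of which 233 had 1 member. The 3 largest families by reads held 41.5% of the reads and the 10 largest 60.1%. Reads of 2802 members were found in all 9 libraries.

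The libraries held 153988 to 1379536 unannotated reads, lowest in mid-myocardium of heart 6 and highest in endocardium of heart 7, so that 3 reads correspond to 0.00195% of the shallowest library and 0.000217% of the deepest. Since the libraries were amplified and carry no molecular identifiers, these floors and the intervals given with shares hold for counting error alone. Every deposited sequence reached 10 reads in at least 1 library, except for 171 whose highest count was 9, each in epicardium of heart 6. Among the members, 1711 (35.2%) reached 10 reads in 1 library alone, which was endocardium of heart 7 for 990 and mid-myocardium of heart 8 for 500. No member reached it in epicardium or mid-myocardium of heart 6 alone (0 of 4862 each). Epicardium of heart 6 held 719549 unannotated reads, more than epicardium of heart 8 (687955), where 77 members reached it alone. The reason was not tested. On the annotated reads, the cardiac muscle miRNAs miR-1, miR-133a, miR-133b, miR-208, miR-208b and miR-499 made up 5.43% to 14.3% of the library. The leukocyte miRNAs miR-142, miR-150 and miR-223 made up 0.574% to 1.34%. The red cell list was 9.38% to 22.9%, nearly all of it miR-486, which muscle also makes, while the red cell miRNAs miR-451 and miR-144 stayed at or below 0.0960% and 0.0207%. Markers of endothelium (miR-126) were 1.07% to 1.61%, of smooth muscle (miR-143 and miR-145) 9.17% to 15.5%, and of fibroblasts (miR-199a and miR-214) 0.149% to 0.286%.

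The first question was whether the layers differed in how much of the unannotated RNA was of this size. In epicardium the share of unannotated reads was 27.9% (95% Wilson interval 27.8 to 28.02) in heart 6, 25.7% (25.6 to 25.8) in heart 7 and 36.5% (36.4 to 36.7) in heart 8. In mid-myocardium it was 25.9% (25.7 to 26.2), 25.2% (25.1 to 25.3) and 34.2% (34.1 to 34.3). In endocardium it was 24.7% (24.6 to 24.9), 34.2% (34.1 to 34.3) and 38.3% (38.2 to 38.4). Heart 8 was highest in every layer, and the range of hearts within a layer was wider than the distance between layers.

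The mean share was 30.0% ± 5.74 (SD, n = 3) in epicardium, 28.4% ± 4.97 in mid-myocardium and 32.4% ± 6.95 in endocardium. Endocardium and epicardium differed by 2.37 percentage points (exact two-sided permutation test, p = 0.8). Mid-myocardium was 1.60 points below epicardium in the mean (difference -1.60, exact permutation p = 0.6), and it was the lower of the pair in all 3 hearts (exact swap of layers within hearts, p = 0.25, the smallest that 3 hearts allow). Endocardium and mid-myocardium differed by 3.97 points (exact permutation p = 0.6). With 3 libraries a layer the exact permutation test cannot give a p below 0.1. The difference within hearts had a standard error of 3.39 points for endocardium against epicardium, so that a difference of several points would not have been seen.

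**Figure D1:**
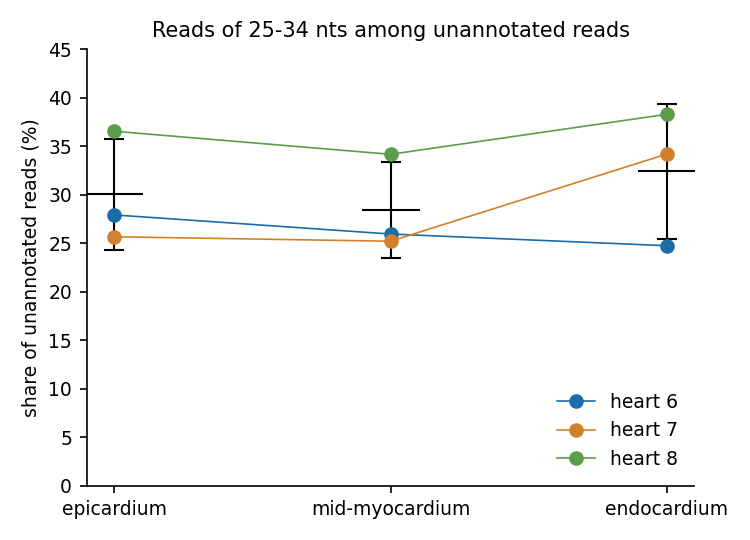
Share of unannotated reads that were 25 to 34 nts long (vertical axis, %) in each layer, with 1 point per library, lines joining the layers of 1 heart, and bars at the mean ± SD of 3 hearts. Heart 8 lies at 34.2% to 38.3% in every layer, and the means of the layers, 28.4% to 32.4%, differ by less than the SD.

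Within the range the lengths were not even. Reads of 32 nts were 19.7% of the member reads and reads of 34 nts 14.6%, against 5.03% at 27 nts, although the number of members per length changed little, from 449 at 31 nts to 579 at 25 nts. The most common length was 32 nts in 7 libraries and 34 nts in 2, both of heart 6: epicardium, with 22.6% of its member reads at 34 nts, and endocardium, with 14.5%. The share at 32 nts ran from 12.2% in endocardium of heart 6 to 26.4% in endocardium of heart 8. The most abundant members by length were sequence 12 at 25 nts, 35 at 26, 37 at 27, 15 at 28, 6 at 29, 18 at 30, 4 at 31, 1 at 32, 8 at 33 and 3 at 34 nts. Of these, sequences 1, 4 and 18 belong to the glycine tRNA family and differ in their 3′ end. The edges of the range cut through longer and shorter sets: 408 unannotated sequences with 254314 reads were 35 nts long, against 266824 member reads at 34 nts, and 621 sequences with 264053 reads were 24 nts long, against 579 members with 164657 reads at 25 nts.

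**Figure D2:**
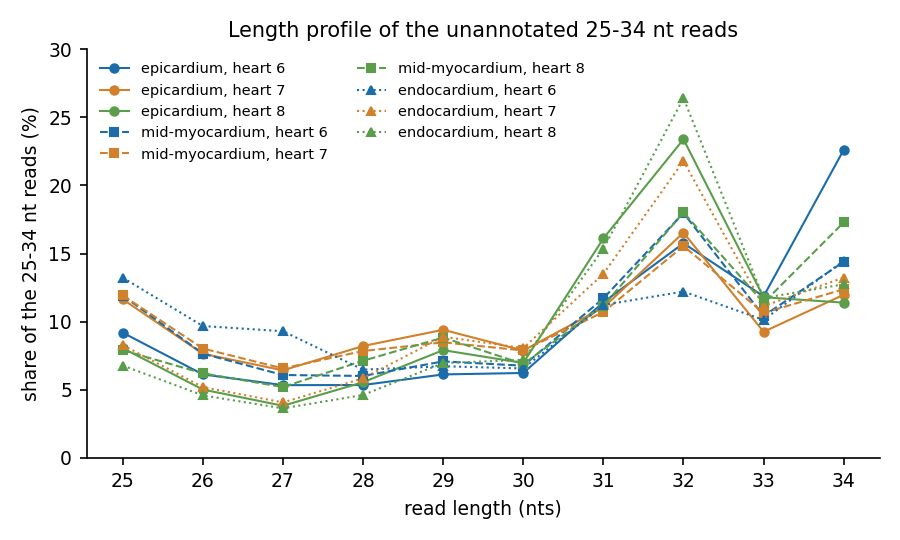
Share of the 25-34 nt reads of each library (vertical axis, %) at each length in nts, with colour for the heart and marker and line style for the layer. All 9 libraries rise at 31 to 32 nts, and epicardium of heart 6 stands above the others at 34 nts, with 22.6%.

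The 5′ part of the glycine tRNA was the leading family, with 219 members and 444542 reads (24.3% of the member reads). Levels are given as RPM, reads per 1000000 unannotated reads of the library. The family had 58338, 46586 and 116874 RPM in epicardium (hearts 6, 7 and 8), 54180, 38882 and 68713 in mid-myocardium, and 29274, 99277 and 118941 in endocardium. The layers overlapped, with means of 73933 ± 37650, 53925 ± 14917 and 82497 ± 47130 (SD, n = 3). Sequence 1 alone was measured at 17617, 17046 and 45917 RPM in epicardium, 19820, 14286 and 25493 in mid-myocardium, and 9703, 37753 and 48885 in endocardium. It was highest in heart 8 in each layer, and endocardium of heart 7 came next after the epicardium and endocardium of heart 8.

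The valine tRNA family (44 members, 77198 reads) ran from 3118 RPM in epicardium of heart 7 to 23529 in endocardium of heart 8. The lysine tRNA family (56 members, 67722 reads) was highest in epicardium of heart 6, at 25208 RPM, and in mid-myocardium of heart 8, at 23733, and lay between 4463 and 11397 in the other libraries. Sequence 3, its leading member, was 34 nts long, held 75.7% of the family, and accounted for 20592 RPM in epicardium of heart 6, the library whose length profile peaked at 34 nts. Each of these families covered the layers with overlapping values.

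The A box was found in 422 members, which held 40.5% of the member reads (22.6% to 50.01% over libraries). Reads were searched on their own strand. The element was also present in 0.527% of 301221 stretches of 32 nts taken from RefSeq gene starts, on the strand of the gene. Among the unannotated reads of other lengths the share was 14.96% at 35 to 55 nts, 0.231% at 20 to 24 nts and 0.0161% at 15 to 19 nts. Reads ending in CCA, the bases added to the 3′ end of mature tRNA, were 3.05% of the member reads. At 35 to 55 nts they were 9.77% and at 20 to 24 nts 8.07%. Such an ending need not be an added one: in the family of sequence 26, a tRNA 5′ part described below, 27.0% of the reads ended so. In the 3 tRNA families named above, 98.6% to 99.8% of the reads held the A box.

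Among the members 19.2% of the reads began with T (15.8% to 22.6% over libraries) and 12.5% had A at position 10, with 1.09% having both. Guanine was the most common first base, with 48.9% of the reads, and 27.8% of the sequences. Without the members that held an A box, T opened 18.9% of the reads and A stood at position 10 in 21.0%. At 15 to 19, 20 to 24 and 35 to 55 nts, T opened 28.8%, 17.3% and 13.9% of the reads, and A stood at position 10 in 22.6%, 24.3% and 27.2%. On pooled reads the share with T first at 25 to 34 nts thus lay between those of the other classes, and the share with A at position 10 below them. Neither held in every library. For A at position 10, the median over libraries was 13.7% at 15 to 19 nts and 14.5% at 25 to 34 nts. The share at 25 to 34 nts was below those at 20 to 24 and 35 to 55 nts in every library. The mean GC content of the member reads was 56.5%, and ran from 52.9% in endocardium of heart 6 to 59.0% in mid-myocardium of heart 8.

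**Figure D3:**
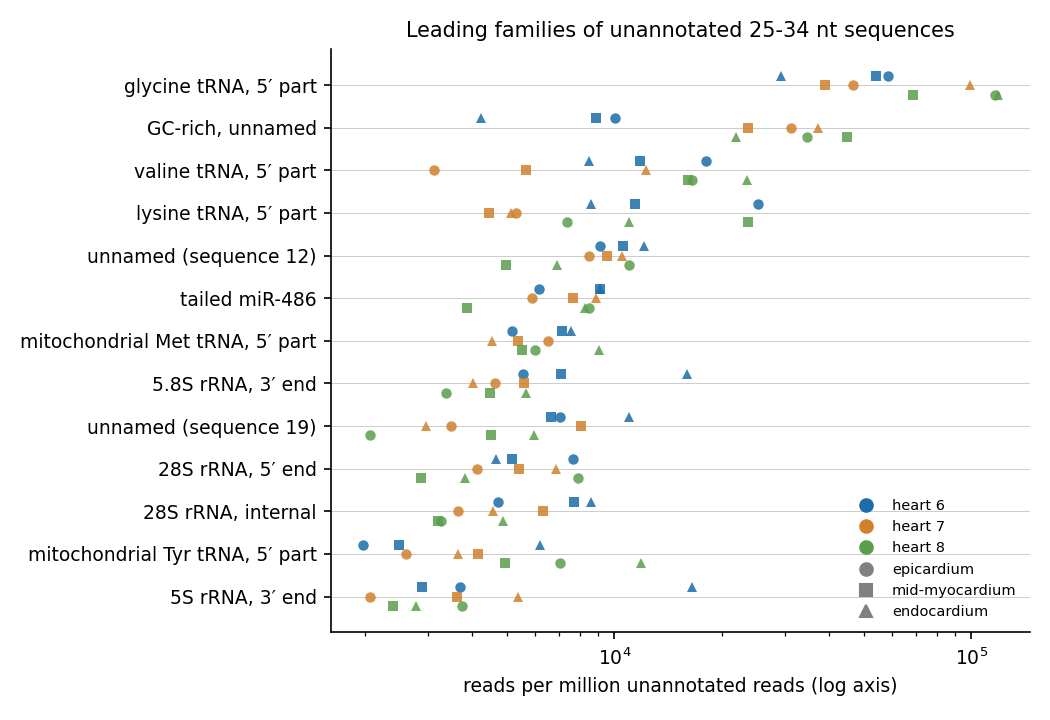
RPM of unannotated reads (horizontal axis, log scale) of leading families by mean share, with colour for the heart and marker shape for the layer. The glycine tRNA family is highest in all libraries (29274 to 118941 RPM), and the GC-rich family of sequence 6 is lowest in the 3 libraries of heart 6.

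The tRNA families were not uniform in sequence, and several of their forms recurred in every library. The forms are shown because they account for a large part of the leading family, and were chosen after their values were seen. In the sequences below, the capitals mark the run in which bases were missing from another form, or the base that differed from the leading member, and base 1 is the 5′ base.
Sequence 1: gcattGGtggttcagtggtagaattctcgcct
Sequence 2, T5G: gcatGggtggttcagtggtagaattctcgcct
Sequence 5, 1 nt missing: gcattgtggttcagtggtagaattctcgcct

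In the glycine tRNA family, reads with T5G made up 19.97% of the reads (88759 reads in 11 members, 14.9% to 24.1% over libraries). Reads that lacked 1 G of the pair at positions 6 and 7 made up 14.9% (66075 reads). All reads with 1 nt missing were 9.11% to 17.6% of the family over libraries. Sequence 2, the leading T5G form, was measured at 7266, 7515 and 16415 RPM in epicardium, 8540, 5437 and 12247 in mid-myocardium, and 2951, 13614 and 24678 in endocardium, so that it followed sequence 1 across libraries at a lower level. A further 4388 reads had 2 nts missing near the same place.

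In the valine family 92.6% of the reads followed the leading member, and the substitutions that passed 0.5% of the reads included all 3 changes of 1 base, G26T (1.35%), G26A (1.13%) and G26C (0.583%). In the lysine family A29G made up 8.03% of the reads (6.51% to 10.4%).

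**Figure D4:**
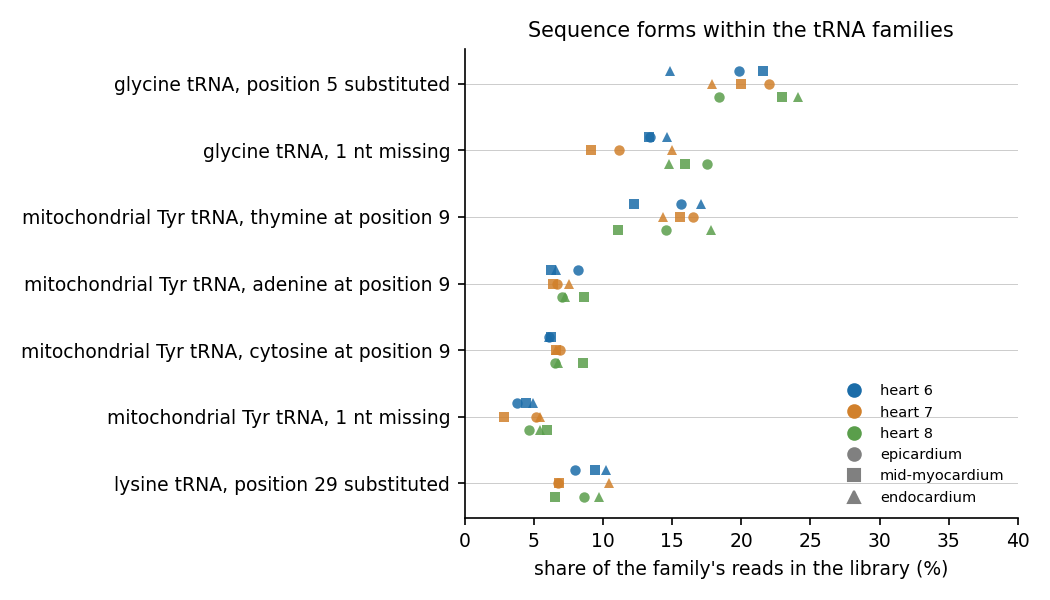
Share of a family's reads in each library (horizontal axis, %) that carried a given substitution or lacked bases, with colour for the heart and marker shape for the layer. The glycine tRNA form with T5G lies between 14.9% and 24.1% in the 9 libraries, and the form with 1 nt missing between 9.11% and 17.6%.

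Mitochondrial tRNAs were represented by their 5′ parts too. By textbook sequence the family of sequence 26 (37 members, 34138 reads) is the 5′ part of the mitochondrial methionine tRNA and that of sequence 14 (15 members, 28091 reads) of the mitochondrial tyrosine tRNA, and both are shown because their RNAs are made in the organelle that fills much of the cardiac myocyte.
Sequence 26: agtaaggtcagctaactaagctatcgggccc
Sequence 14: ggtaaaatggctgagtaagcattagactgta
Sequence 61, G9T: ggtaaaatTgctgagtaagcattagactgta
Sequence 128, G9A: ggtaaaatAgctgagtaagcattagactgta
Sequence 135, G9C: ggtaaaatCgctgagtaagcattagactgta
Sequence 162, 1 nt missing: ggtaaaatgctgagtaagcattagactgta

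In the tyrosine family the differences from the leading member were gathered at 1 base. G9T was found in 15.1% of the reads, G9A in 7.37% and G9C in 6.86%, while 5.06% lacked 1 G of positions 9 and 10. The shares over libraries were 11.1% to 17.8%, 6.27% to 8.64%, 6.08% to 8.55% and 2.82% to 5.98%. As background, position 9 and position 26 of many tRNAs carry methylated purines, and reverse transcriptase is known to misread some methylated bases. Whether that bears on these forms was not tested. The level of the tyrosine family was 1978, 2613 and 7024 RPM in epicardium, 2487, 4156 and 4929 in mid-myocardium, and 6188, 3647 and 11898 in endocardium. The methionine family was the steadiest of the leading families described here, from 4528 to 9045 RPM (1.998-fold).

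A further family, that of sequence 81, is by textbook sequence the 5′ part of the histidine tRNA, which carries an additional G at its 5′ end in the mature RNA. It is shown with this base in place: sequence 81 is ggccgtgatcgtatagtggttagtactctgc. Reads that opened with the additional G were 62.0% of the family (58.3% to 66.4% over libraries), and reads that opened at the next base 10.5% (9.33% to 14.4%). Another base stood in its place in reads with G1A, 14.9% of the family (9.76% to 18.2%), and with G1T, 9.61% (7.97% to 10.5%).

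Pieces of rRNA formed the next group. By textbook sequence, sequence 33 is the 3′ end of 5.8S rRNA, sequence 38 the 5′ end of 28S rRNA, sequence 40 an internal piece of 28S rRNA and sequence 37 the 3′ end of 5S rRNA. They are shown because their families differ in which end the reads share.
Sequence 33: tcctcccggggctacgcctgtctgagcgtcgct
Sequence 38: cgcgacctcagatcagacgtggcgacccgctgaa
Sequence 40: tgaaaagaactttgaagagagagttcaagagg
Sequence 37: ctgggaataccgggtgctgtaggcttt

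In the 5.8S family 95.1% of the 32215 reads shared the last 8 nts of sequence 33 and 25.97% its first 8, whereas in the 28S 5′ end family 96.8% of the 32523 reads shared the first 8 nts of sequence 38 and 21.7% its last 8. Of the tRNA families, 98.9% of the valine and 95.1% of the lysine reads shared the first 8 nts of the leading member. The figure for glycine was 59.6%, since the forms shown above differ within these bases. Endocardium of heart 6 stood apart in the 5S family, at 16459 RPM against 2069 to 5368 in the other 8 libraries. The same library was highest in the 5.8S family, at 15949 RPM against 3371 to 7104. Sequence 37 reached 7214 RPM there and 297 to 1278 elsewhere. Without heart 6, the endocardial values were 5368 and 2780 RPM for 5S, against 2069 to 3733 in the other layers, and 4026 and 5667 RPM for 5.8S, against 3371 to 7104.

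The families of sequences 12 and 19 were left without a name. That of sequence 12 (45 members, 52664 reads) had 9107, 8466 and 11027 RPM in epicardium, 10559, 9559 and 4968 in mid-myocardium, and 12117, 10491 and 6921 in endocardium, and 99.8% of its reads shared the first 8 nts of its leading member. The leading member of the other is shown because its family was among the 10 leading ones: sequence 19 is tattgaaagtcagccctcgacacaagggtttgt. The family (27 members, 29142 reads) ran from 2064 RPM in epicardium of heart 8 to 10988 in endocardium of heart 6, and 88.5% of its reads shared the last 8 nts of sequence 19. Neither family had a layer whose values lay apart from those of the other layers.

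By exact match to the RefSeq tables, 43 members with 255542 reads (13.98% of the member reads) fell in tRNA genes, 40 of them in Trnag-gcc2, and 198 members with 30870 reads (1.69%) in rRNA genes. Of the rRNA members, 185 matched LOC120102105, a gene of 1872 nts with the length of 18S rRNA at chr11:239004-240875. Sequence 174, the most abundant of them, is aacgagactctggcatgctaactagtt and lies at chr11:239465-239491. No member matched a miRNA hairpin over its whole length. Members with no match were 4590, with 84.2% of the reads, and 4443 when 1 mismatch was allowed. Their origin was not tested.

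A small set of 23 members with 1465 reads (0.0801%) lay in protein coding genes, and 18 of them, with 1311 reads, in Myh6, which encodes the α-myosin heavy chain of the cardiac sarcomere. The others were in Cox7a2, a subunit of cytochrome c oxidase (2 members, 62 reads), in Mb, which encodes myoglobin (35 reads), in Hbb, a β-globin gene (33 reads), and in Myh7, the β-myosin heavy chain (24 reads). Only the parts of these genes that lie in a window around some gene start could be matched, the tables do not say whether these places are exons or introns, and the myosin genes share long runs of sequence. Sequence 804, the most abundant, is shown as it lies in Myh6 at chr15:32395176-32395206 on the minus strand: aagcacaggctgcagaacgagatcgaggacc. The 8 members filed under lncRNA genes had 525 reads. Sequence 1083, the most abundant of them, lies in LOC134486046 and is a stretch of 18S rRNA by textbook sequence.

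The classes count exact matches alone. Trnag-gcc2 gave 255304 of the 255542 tRNA reads, and LOC120102105 28417 of the 30870 rRNA reads. Most reads of the other tRNA and rRNA families named by textbook sequence are thus outside these 2 classes. The matched tRNA share was 13.9% ± 3.85 (SD, n = 3) in epicardium, 11.05% ± 1.37 in mid-myocardium and 13.7% ± 5.27 in endocardium. The matched rRNA share was 1.91% ± 0.529, 2.10% ± 0.493 and 1.48% ± 0.353. Of 5 classes in 3 comparisons, none had an adjusted p under 0.05 by the exact permutation test, which cannot reach it with 3 libraries a layer. The smallest unadjusted p was 0.1, for the share in protein coding genes in mid-myocardium against epicardium (0.0748% ± 0.00710 against 0.0958% ± 0.01003, n = 3, exact permutation test, adjusted p = 0.5 over the 5 classes).

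A separate family was made of miR-486 with added 3′ bases. miR-486, a miRNA of muscle and red cells, is held by the annotated reads under entries of other species, and its 22-nt mature form opened 56 members with 41510 reads. They are shown because their added bases, in capitals, are of a narrow kind.
Sequence 25: tcctgtactgagctgccccgagTAA
Sequence 31: tcctgtactgagctgccccgagTAT
Sequence 34: tcctgtactgagctgccccgagAAA
Sequence 49: tcctgtactgagctgccccgagAAT
Sequence 173: tcctgtactgagctgccccgagAAAT
Sequence 179: tcctgtactgagctgccccgagTAAA

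Of the added bases, 63.3% were A and 34.8% T, with 1.82% G and 0.0357% C. Extensions of 3 nts held 72.9% of these reads, of 4 nts 17.1%, and of 5 nts 5.64%. Extensions of 7 nts were 23.4% G. Extensions under 3 nts fall below the range of lengths. The annotation allowed additions of up to 3 nts at an end, and some mismatches. The bases above and the ratios below therefore describe only the extended reads it left over. How far this choice set the mix of bases was not tested. The extended reads numbered 35.9, 37.9 and 37.9 per 1000 annotated miR-486 reads in epicardium (hearts 6, 7 and 8), 35.7, 34.7 and 34.8 in mid-myocardium, and 39.3, 36.9 and 35.1 in endocardium. Over the 9 libraries the ratio moved little, with means of 37.3 ± 1.16 (SD, n = 3), 35.1 ± 0.574 and 37.1 ± 2.13 in the 3 layers, while the extended reads themselves ran from 3785 to 9007 RPM. The ratio was looked at after the family had been found, and was not tested.

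**Figure D5:**
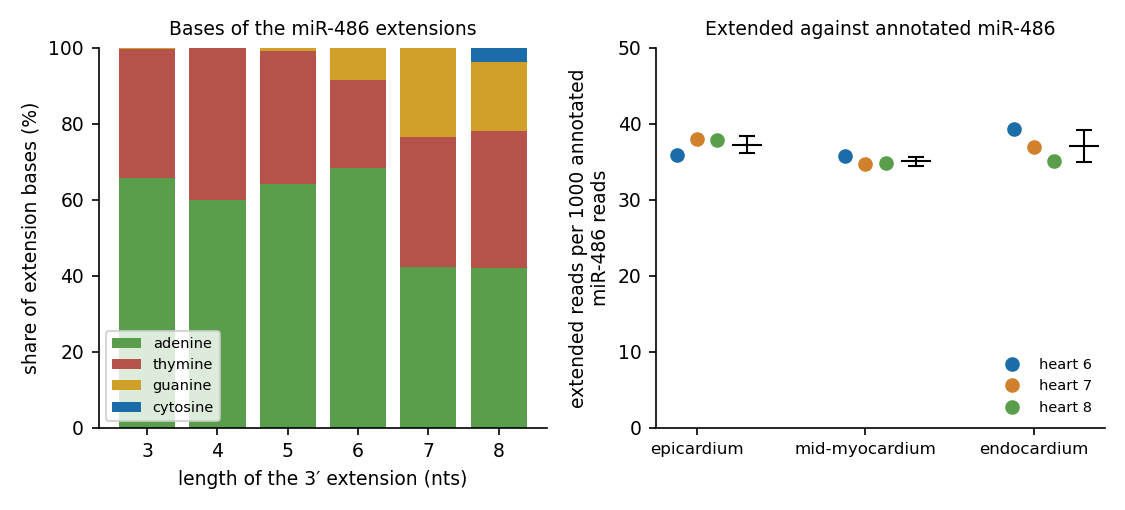
Left, share of adenine, thymine, guanine and cytosine (vertical axis, %) in the 3′ extensions of miR-486 that the annotation left over, by extension length in nts. Right, extended reads per 1000 annotated miR-486 reads in each library by layer, with bars at the mean ± SD of 3 hearts; adenine and thymine make up nearly all bases of extensions of 3 to 5 nts, and the ratio lies between 34.7 and 39.3 in all libraries.

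Sharing with annotated reads was not limited to miR-486. In all, 520 members with 17.2% of the member reads (10.01% to 19.4% over libraries) shared a run of 18 nts with an annotated read. These included 62 members with 82337 reads that shared with reads filed under mir-125, all 62 from the family of sequence 6. Such reads are split between the annotated and unannotated sets, and the levels given here count only the unannotated part.

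The second question was which members differed between layers. Of the members, 2387 passed the filter of at least 10 reads in at least 3 libraries, among 6664 unannotated sequences of any length that did. In edgeR's quasi-likelihood test with Benjamini-Hochberg adjustment over the 6664 sequences, 0 members were called between endocardium and epicardium, 0 between mid-myocardium and epicardium, and 0 between endocardium and mid-myocardium, as was also the case for all sequences (background 0% in each comparison). At an unadjusted p under 0.05 the members numbered 57, 20 and 113 of 2387, and all sequences 268, 64 and 401 of 6664. This fit had no heart term, although each heart gave all 3 layers. With hearts as a block in the fit, these unadjusted counts were higher in each comparison, for members and for all sequences. The calls stayed at 0. By DESeq2 the calls were 0 in each comparison. At an unadjusted p under 0.05 it had 54, 25 and 131 members, and 273, 71 and 402 of all sequences. Baggerley's test between endocardium and epicardium called 0, with 75 members and 290 of all sequences unadjusted. On families the calls were again 0 of 426 (background 0% of 2331 families). At an unadjusted p under 0.05 edgeR had 20, 3 and 16 of the 426, and 131, 22 and 173 of all 2331. DESeq2 called 0 families, with 17, 4 and 25 unadjusted, and 87, 29 and 120 of all families.

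For the 10 members with the highest mean share of unannotated reads over the 9 libraries, the log2 differences ran from -0.71 to 0.40 between endocardium and epicardium, from -0.84 to 0.03 between mid-myocardium and epicardium, and from -0.74 to 0.91 between endocardium and mid-myocardium. The smallest unadjusted p among them was 0.198 (edgeR's quasi-likelihood test). Such values depend on the scaling: with TMM factors the median log2 difference of all tested sequences moved from -0.14 to -0.02 between endocardium and epicardium, from 0.12 to -0.05 between mid-myocardium and epicardium, and from -0.28 to 0.02 between endocardium and mid-myocardium, and the median of the members changed sign in all 3.

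The members nearest to a call are given as values. Sequence 1289, caatagacgcccaagaagtagaaac, was measured at 23.6, 44.4 and 50.9 RPM in epicardium and at 4.30, 8.70 and 14.3 in endocardium, with 25.98, 16.1 and 23.4 in mid-myocardium. The endocardial values lay below the epicardial ones without overlap, and the log2 difference was -2.10 ± 0.65 (SE, adjusted p = 0.942 by edgeR). Sequence 1000, a 29-nt piece of the 5S family, was higher in endocardium (88.1, 31.2 and 26.5 RPM) than in epicardium (13.9, 8.87 and 11.6), with a log2 difference of 2.04 ± 0.66 and the same adjusted p by edgeR, 0.942. Sequence 2082 was at 27.8, 24.8 and 11.6 RPM in epicardium and 0, 4.35 and 4.08 in endocardium, and also missed the threshold (log2 difference -2.69 ± 0.91).

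Between mid-myocardium and epicardium, sequences 2668 and 906 were among the members with the smallest p, with log2 differences of -2.84 ± 0.94 and 1.84 ± 0.64 (adjusted p = 0.9998 for both by edgeR). Between endocardium and mid-myocardium the smallest p belonged to sequence 921, at 174, 32.6 and 24.5 RPM in endocardium and 6.49, 11.5 and 7.78 in mid-myocardium (log2 difference 3.08 ± 0.84, adjusted p = 0.732 by edgeR). Sequences 1338 and 1943 followed, both lower in endocardium, at log2 differences of -2.55 ± 0.76 and -2.55 ± 0.79. The families with the smallest p were those of sequence 911 (log2 difference -1.80 ± 0.57, endocardium against epicardium), sequence 2592 (-1.91 ± 0.72, mid-myocardium against epicardium) and sequence 511 (-2.04 ± 0.58, endocardium against mid-myocardium), with adjusted p of 0.815, 0.999 and 0.637 by edgeR.

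The last question was whether the animals differed. With layer in the fit, 110 of 2387 members were called between hearts (edgeR's quasi-likelihood F test, adjusted p under 0.05), which is 4.61% and close to the 4.65% of all 6664 sequences tested. At family level 23 of 426 were called, 5.40% against 6.86% of all 2331 families. The called members were mostly low in heart 6: it had the lowest mean of the 3 hearts for 86 of 110 called members (78.2%), against 51.2% of the members tested. In 68 of the 110 (61.8%) every heart 6 library was below all 6 others, and in 16 (14.5%) every one was above. Among the members tested these were 12.1% and 6.62%. The called members were chosen by a test of the same values, so such separation is in part built in.

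The calls rested on heart 6. Without its epicardium 3 members were called, without its mid-myocardium 10 and without its endocardium 5, and on families 2, 6 and 1. Without mid-myocardium of heart 8 the family count was 8. The heart 6 libraries held 719549, 153988 and 465229 unannotated reads (epicardium, mid-myocardium, endocardium), and the shallowest library of the series is among them. The called members had a median GC content of 73.4%, against 52.9% of those tested, and the GC content of the member reads was 52.9% to 54.8% in the heart 6 libraries and 54.3% to 59.0% in the others. The part of depth, base composition and the deposited minimum in the calls was not tested.

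The family of sequence 6, GC-rich and without a name, supplied 33 of the 110 calls, all lowest in heart 6, with 112 of its members tested. Its members share runs of sequence, so these calls are not independent. They also weigh on the heart 6 counts and the GC content given above for the called members. The family had 192 members and 164873 reads, with 10055, 8903 and 4241 RPM in the epicardium, mid-myocardium and endocardium of heart 6. It had 31184, 23652 and 37320 in heart 7 and 34777, 44757 and 21984 in heart 8, so that heart 6 lay below every other library. The means were 7733 ± 3079, 30719 ± 6846 and 33839 ± 11416 in hearts 6, 7 and 8 (SD, n = 3), with an adjusted p of 0.0162 by edgeR over families. Without 1 heart 6 library it rose to 0.0820 (epicardium left out), 0.115 (mid-myocardium) or 0.259 (endocardium). Its reads had a GC content of 76.1%, and 25.9% of them ended like sequence 6.

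The members with the smallest p were less abundant. Sequence 429, agcacgagcgtacgcgttaggacccg, was highest in heart 7, at 106 RPM, 188 RPM and 208.04 RPM in epicardium, mid-myocardium and endocardium. It was at 2.78, 0 and 4.30 in heart 6 and 23.3, 7.78 and 6.12 in heart 8 (adjusted p = 1.21e-05 by edgeR). Its family of 12 members was also highest in heart 7, with means of 58.2 ± 13.2, 272 ± 84.1 and 46.9 ± 6.94 in hearts 6, 7 and 8 (adjusted p = 0.00331 by edgeR over families). The smallest family p belonged to that of sequence 1646, with 3 members at 0 to 2.78 RPM in heart 6 and 11.1 to 87.0 in the others (adjusted p = 0.00307 by edgeR). That p was 0.0827 without endocardium of heart 6.

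Sequence 1093 is a form of the glycine tRNA family with bases missing, and was measured at 85.8, 10.01 and 104 RPM in the epicardium, mid-myocardium and endocardium of heart 8 against 0 to 14.5 elsewhere, so that its mid-myocardium overlapped the other hearts (adjusted p = 0.00347 by edgeR). Sequence 532 was high in heart 6, at 121, 214.3 and 232 RPM against 16.7 to 42.9 in the other hearts (adjusted p = 0.00411 by edgeR). It begins with the end of the 5′ adapter of Illumina small RNA kits, so it is not wholly rat RNA, and its call was lost when any 1 library of heart 6 was left out (adjusted p of 0.0741 to 0.0811). Sequences 779 and 498, of 86.7% and 91.2% GC, were highest in heart 7, with means of 71.6 and 99.5 RPM against 11.9 and 5.39 in heart 6 and 8.91 and 42.6 in heart 8 (adjusted p = 0.00485 and 0.00503 by edgeR). Sequence 779 was at 0.0546 without epicardium of heart 6, and sequence 498 at 0.0741 or 0.108 without its epicardium or endocardium. Among the abundant families called, that of sequence 229 (12 members) was highest in heart 6, with means of 880 ± 129, 369 ± 174 and 247 ± 89.9 RPM in hearts 6, 7 and 8 (adjusted p = 0.0255 by edgeR). That p ran up to 0.284 with 1 library of heart 6 left out, and was 0.0795 without mid-myocardium of heart 8 and 0.0733 without the layer term. The family of sequence 168 (44 members) was highest in heart 8, with 628 ± 110, 872 ± 208.3 and 2573 ± 1385 RPM (adjusted p = 0.0259 by edgeR), and was not called without epicardium or endocardium of heart 6 (0.145 and 0.249) or of heart 8 (0.0762 and 0.113).

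Of the 10 members with the highest mean share of unannotated reads over the 9 libraries, 1 was called between hearts. Sequence 10, a valine tRNA piece 1 nt longer than sequence 8, was at 8188, 4708 and 4413 RPM in the epicardium, mid-myocardium and endocardium of heart 6. It was at 820, 1103 and 2420 RPM in heart 7 and 3009, 6173 and 7096 in heart 8, so that heart 7 lay below every other library (adjusted p = 0.0428 by edgeR). The call was lost without any 1 library of heart 6 (0.0969 to 0.185), without epicardium or mid-myocardium of heart 7 (0.145 and 0.152), and without mid-myocardium of heart 8 (0.0629). It was also lost on all deposited reads as the library size (0.0688) and without the layer term (0.0807).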

How the data were processed

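Small RNA of 30 mg of frozen tissue was sequenced with the TruSeq Small RNA kit, and the authors trimmed and aligned the reads to miRBase v18 with CLC Genomics Workbench v4.0. The unannotated file they deposited holds raw read counts per sequence, and the annotated file RPM on the annotated reads of the library; whole reads were recovered from it for 100% of 417222 values (within 0.01 of a whole number). The third deposited table, of grouped miRNAs, was not used. The members and lists were chosen with earlier results of these data known.

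Shares and RPM are on the unannotated total of the library. Counts were tested with edgeR 4.0.16 (glmQLFit and glmQLFTest in R 4.3.3, limma 3.58.1) on that library size without further factors, over all 9 libraries, for sequences with at least 10 reads in at least 3 libraries, and on sums over families (shared runs of 18 nts within a length class). DESeq2 1.42.0, TMM factors, Baggerley's test, other filters and library sizes, runs of 22 nts and each library left out in turn were alternatives. The fits were tested on simulated data. Single values were compared by exact permutation with Python 3.11.15, scipy 1.17.1, numpy 2.4.6 and pandas 2.3.3, and drawn with matplotlib 3.10.9. Matching used RefSeq tables of GRCr8 (hairpins and 33469 gene starts), with a 3′ CCA, CC or C removed where needed.

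The libraries of 1 number come from the same animal, and their deviations from the layer means correlated at 0.0822 to 0.540. For libraries of different hearts and layers the range was -0.4885 to 0.399, so the ranges overlap. Every pair from the same heart correlated positively, and the main fit of layers had no heart term. Each layer has 3 separate animals. Named sequences are the 10 with the highest mean share over libraries, the leading members of the 10 leading families, of each class and of each length, and those with the smallest p. Families 11 to 14, that of sequence 81, forms, extensions, the A box and the families of sequences 168 and 229 were chosen after their values were seen. An abundant family and its members are not reported here by name, but stay in all totals and counts.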

Additional observations from a re-analysis of the deposited data

How the results depend on the processing

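Between layers the counts of called members and families stayed at 0 under every alternative run, the replicate block by heart number included. The counts of RNA classes were 0 as well, but the exact tests cannot reach the threshold with 3 libraries a layer, so these counts were fixed beforehand. The difference in the share of unannotated reads between endocardium and epicardium was -0.101 points on sequences present rather than reads, and ran from -0.576 to 6.20 points with 1 library left out. That between mid-myocardium and epicardium ran from -4.47 to 1.65. With the replicate block (layers swapped within hearts, exact) the differences of 2.37, -1.60 and 3.97 points had p = 0.75, 0.25 and 0.5, and the block changed no call. Between hearts, 188 members were called without a filter, 182 by DESeq2, 56 without the layer term and 3 to 135 with 1 library left out. For families the counts were 35 with TMM factors, 41 by DESeq2, 7 without the layer term and 1 to 33 with 1 library left out. The lowest counts came without a library of heart 6 (3 to 10 members, against 79 to 135 without a library of heart 7 or 8). The cause of these shifts was not tested. Depth limits what could be seen, with 3 libraries a layer and a shallowest library of 153988 reads. The deposited minimum also fell unevenly on the libraries: 990 members reached it in endocardium of heart 7 alone, and 0 in epicardium of heart 6 alone.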
